A study of Mus musculus with 6 samples.

Results

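Inflammasome components and cytokines of the interleukin-1 (IL-1) family were examined in peritoneal macrophages (PMs) of lupus-prone and control mice. A list of 10 genes was taken by symbol from the 32879 genes with a transcript record in the count files. They comprise the sensor Nlrp3, the gene Nlrc4, whose protein NAIP sensors engage, and the adaptor Pycard. The others are the caspases Casp1 and Casp4, the pore protein Gsdmd, the cytokines Il1a, Il1b and Il18, and the receptor antagonist Il1rn. RNA was extracted from sorted CD11b+ F4/80+ PMs of 3 diseased-BWF1 mice and 3 control mice, with 1 library per mouse, and the study's methods describe no culture step before extraction. Diseased-BWF1 mice are F1 offspring of New Zealand black and New Zealand white parents, which develop lupus spontaneously, and were 31, 31 and 34 weeks old. Control mice are F1 offspring of New Zealand white and BALB/c parents, do not develop lupus, and were 33, 33 and 30 weeks old. Both groups carry a New Zealand white genome and no introduced allele or treatment, and because the other parent differs, disease and strain cannot be told apart in any comparison that follows.

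An inflammasome is a cytosolic complex in which a sensor such as NLRP3, or NLRC4 engaged by a NAIP protein, recruits caspase-1. In many cases this is through the adaptor ASC, the product of Pycard. Caspase-1 cleaves the inactive precursors of IL-1β and IL-18, and caspase-1 or caspase-11, the product of mouse Casp4, cleaves gasdermin D, whose amino-terminal part forms pores in the plasma membrane. In macrophages, transcription of Nlrp3 and Il1b is known to be induced by a priming signal such as a Toll-like receptor agonist, whereas caspase-1, ASC and the IL-18 precursor are made without one. Activity of the complex depends on cleavage and assembly of proteins, which RNA levels do not measure.

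Il1a and Il1b are neighbours on chromosome 2, separated by 54382 bases, and they had very different read counts in these PMs. The 100 bases upstream of their start sites are given from the RefSeq promoter table (GRCm38.p6, minus strand, C57BL/6J reference and not the strains of these mice), at chr2:129309973-129310072 for Il1a and chr2:129371140-129371239 for Il1b. Capitals mark TATAAA, the core promoter element known as the TATA box, and in Il1a also a match to TGANTCA, a sequence that dimers of Fos and Jun proteins are known to bind.
Il1a: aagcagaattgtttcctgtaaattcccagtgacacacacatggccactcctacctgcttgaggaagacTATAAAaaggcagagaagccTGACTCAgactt
Il1b: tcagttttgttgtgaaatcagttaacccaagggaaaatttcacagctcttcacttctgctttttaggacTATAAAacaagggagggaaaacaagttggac
TATAAA began 32 bases upstream of the Il1a start and 31 bases upstream of the Il1b start. On either strand of the 250 bases upstream, TATAAA was present in 12.4% of 32851 promoters and TGANTCA in 6.75%. The promoter table held 9 of the 10 genes, with 13 start sites in all. Among these 13, TATAAA was found at 3 (Il1a, Il1b and Il18) and TGANTCA at 2 (Il1a and Il1rn). The TATAAA of Il18 began 175 bases upstream, farther from the start than those of Il1a and Il1b. GAGGAA, the letters of an ETS-type site such as that of PU.1, was present in 23.3% of all promoters, and overlaps neither of the other motifs in Il1a, where it began 41 bases upstream. GAGGAA was also found upstream of Nlrp3, Pycard and Casp1. An NF-κB motif was present in 7.25% of all promoters and was found upstream of Nlrp3 and Casp4 among these genes. The matches describe letters of the reference only.

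Of the 10 genes, 9 passed the low-count filter, and Il1b did not. A gene was called when its adjusted p was below 0.05 (edgeR's quasi-likelihood test, Benjamini-Hochberg method) and its fold was 1.5 or more. None of the 9 was called between diseased-BWF1 and control PMs, while 1.22% of the 10505 tested genes were, 0.4% higher and 0.819% lower in diseased-BWF1 mice. The DESeq2 package also called 0 of them, against 3.07% of the 12036 genes to which it gave an adjusted p, 1.06% being higher in diseased-BWF1 mice. Il1a, the gene of IL-1α, was 1 of the 9 with an unadjusted p under 0.05, a level that 13.2% of all tested genes reached. The fitted difference was negative (lower in diseased-BWF1 mice) for 7 genes and positive for 2, with a median log2 fold change of -0.45 over the 9 and of 0.01 over all tested genes. In 3 of the 9 genes the mice of the groups did not overlap, which was the case for 20.8% of all tested genes. Il1a and Il18 were higher in each control mouse (11.2% of all tested genes), and Nlrc4 was higher in each diseased-BWF1 mouse (9.59%). Errors of log2 fold changes are given as standard errors (SE).

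**Figure D1:**
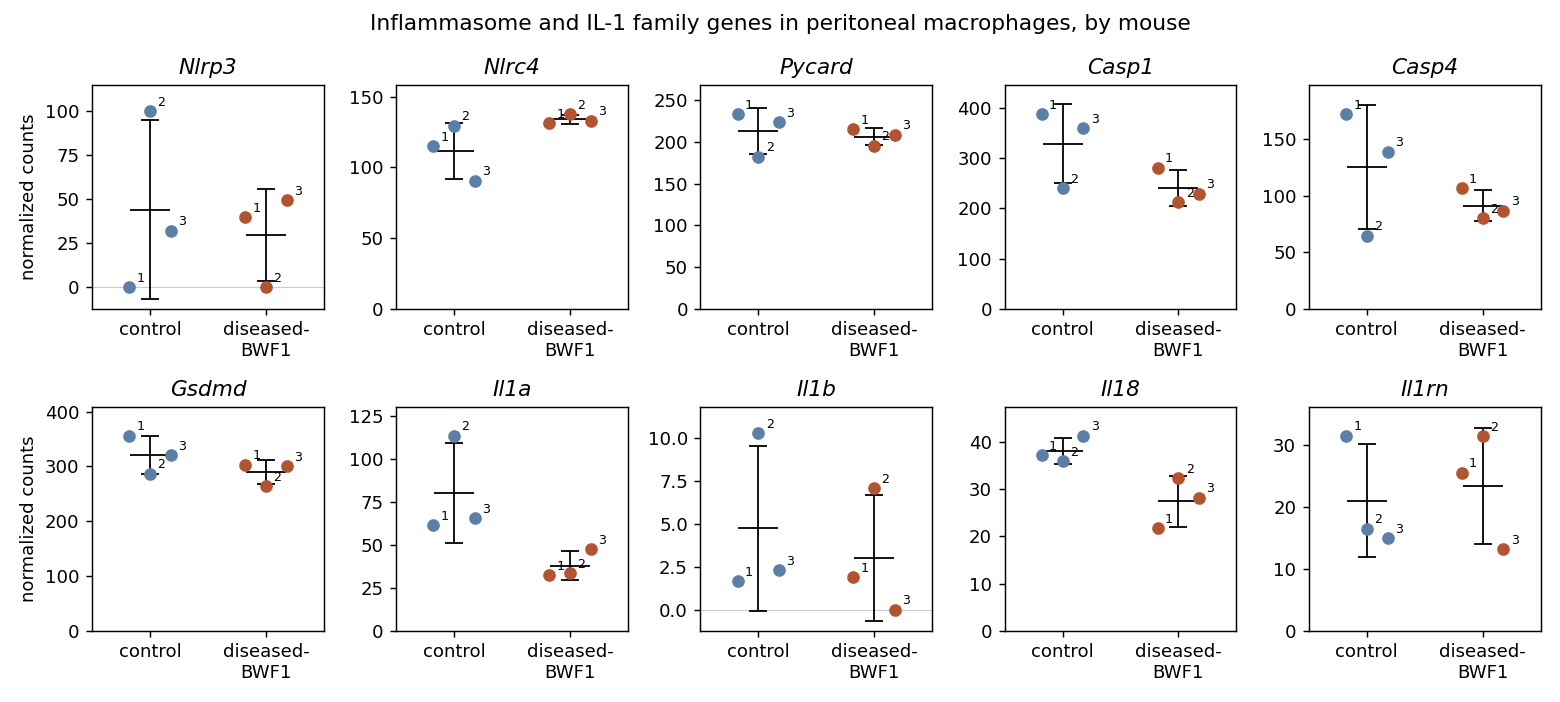
Normalized counts (counts divided by DESeq2's size factor of the library) of the 10 genes, with 1 point per mouse labelled by its number, control mice at left and diseased-BWF1 mice at right of each panel, and bars for the mean and SD (n = 3). Il1a and Il18 have all control points above the diseased-BWF1 points, Nlrc4 has the reverse, and the remaining panels overlap.

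Levels of different genes can be compared only per transcript length, and are given as CPM (counts on genes rescaled to equal library sizes) per kilobase. Averaged over the 6 mice, and leaving Pycard aside, the order was Casp1 (49.9 CPM per kilobase), Gsdmd (44.7), Casp4 (19.8), Il18 (10.01), Il1a (7.81), Nlrc4 (6.82), Il1rn (4.22), Nlrp3 (2.40) and Il1b (0.749). Pycard has no certain place, because its annotated transcript length of 3800 bases, which gave 14.5 CPM per kilobase, exceeds the RefSeq span of the gene, 2495 bases. With the span as its length, a choice made after seeing the data, Pycard had 22.1 CPM per kilobase, above the mean of Casp4, and a shorter transcript would place it higher still. Casp1 spanned 37.1 to 67.7 and Gsdmd 38.7 to 52.0 CPM per kilobase, so their order was not separated by the spread between mice. Gsdmd lay above Casp4 in every mouse, since Casp4 spanned 11.9 to 31.4. Each further pair of neighbours in the order had overlapping ranges across mice, among them Casp4 and Il18 (6.65 to 12.7), Il18 and Il1a (4.28 to 15.1), and Il1rn (2.48 to 5.98) and Nlrp3 (0 to 6.52). Compared within each mouse, Casp4 nevertheless lay above Il18 and Nlrc4 above Il1rn in all 6 mice. The remaining overlapping pairs changed order in at least 1 mouse. With the longest annotated transcript in place of the length used, Il1rn and Nlrp3 exchanged places.

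**Figure D2:**
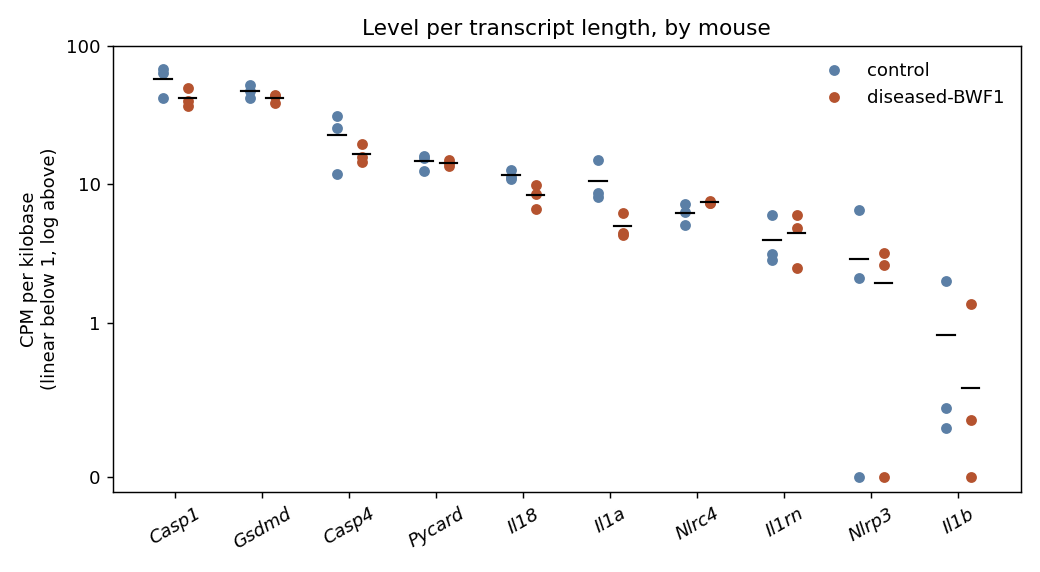
Level per transcript length in CPM per kilobase (vertical axis, linear below 1 and logarithmic above) of each gene, ordered by the mean over all mice, with 1 point per mouse and a bar at the mean of each group. Pycard is drawn with the transcript length of 3800 bases, so its place is not certain. Casp1 and Gsdmd lie above 37 in every mouse, and Il1b lies below 2 in every mouse.

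Nlrp3, on chromosome 11 from 59541569 to 59566955, had the largest SD of log2 CPM over the 6 mice (2.50) among the 9 tested genes. Its normalized counts were 0, 99.8 and 32.2 in control mice 1 to 3 and 39.7, 0 and 49.4 in diseased-BWF1 mice 1 to 3. The groups overlapped, and each held 1 mouse without a count, where 3 counts, the number that a count of 0 allows, would be 0.652 CPM in control mouse 1 and 0.797 CPM in diseased-BWF1 mouse 2. The mean was 44.0 ± 50.9 (SD, n = 3) in control and 29.7 ± 26.2 in diseased-BWF1 mice. Diseased-BWF1 mice differed from controls by a log2 fold change of -0.55 with an SE of 1.35 and a 95% confidence interval from -3.71 to 2.61, which is too wide to give a direction. Without control mouse 2 it was 0.97, and without diseased-BWF1 mouse 2 it was 0.04. The files held 2 of the 5 annotated records of Nlrp3 and counts on 1 of them, and reads that were counted on records without a gene match are not included.

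The profiles closest to Nlrp3 over the 6 mice were those of Rasal3, Pde10a, Mrpl42, Gon4l and Gps2, with root mean square distances of 0.735 to 1.31 in mean-centred log2 CPM. Rasal3 and Mrpl42 also had 0 counts in control mouse 1 and diseased-BWF1 mouse 2. Pde10a had 1 and 0 counts there, Gps2 had 0 and 13, and Gon4l had 58 and 5 counts against 122 to 173 in the remaining mice. These genes were chosen for their likeness to Nlrp3, so low counts in the same mice follow from the choice.

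Nlrc4, the adaptor-like core of inflammasomes that respond to flagellin and type III secretion proteins, lies on chromosome 17 from 74426255 to 74459144. It had 115, 129.6 and 90.7 normalized counts in control mice 1 to 3 and 131, 138 and 133 in diseased-BWF1 mice 1 to 3. The groups did not overlap, although the lowest diseased-BWF1 mouse stood just above the highest control mouse. Means were 112 ± 19.6 and 134 ± 3.34 (SD, n = 3), a fitted log2 difference of 0.26 (SE 0.16, 95% confidence interval from -0.13 to 0.64, edgeR adjusted p = 0.564). The exact two-sided permutation test gave p = 0.1, the smallest value it can reach with 3 mice against 3. The sum over records was far steadier than any record. The curated record held 31.6%, 57.1% and 0% of the counts of control mice and 0%, 5.88% and 59.9% of those of diseased-BWF1 mice, and with that record alone the log2 fold change was -0.35. How the authors assigned reads shared by records is not given in the sources used here.

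Pycard, which encodes the adaptor that links sensors to caspase-1, lies on chromosome 7 from 127991373 to 127993867. It had 233, 182 and 224 normalized counts in control and 215, 195 and 209 in diseased-BWF1 mice. Every diseased-BWF1 value lay within the range of the control mice. Its fitted log2 fold change was -0.05 (SE 0.14), with a 95% confidence interval of the fold from 0.775 to 1.21. A change of 1.5 times in either direction lies outside this interval. Without control mouse 1 the log2 fold change was 0.02.

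**Figure D3:**
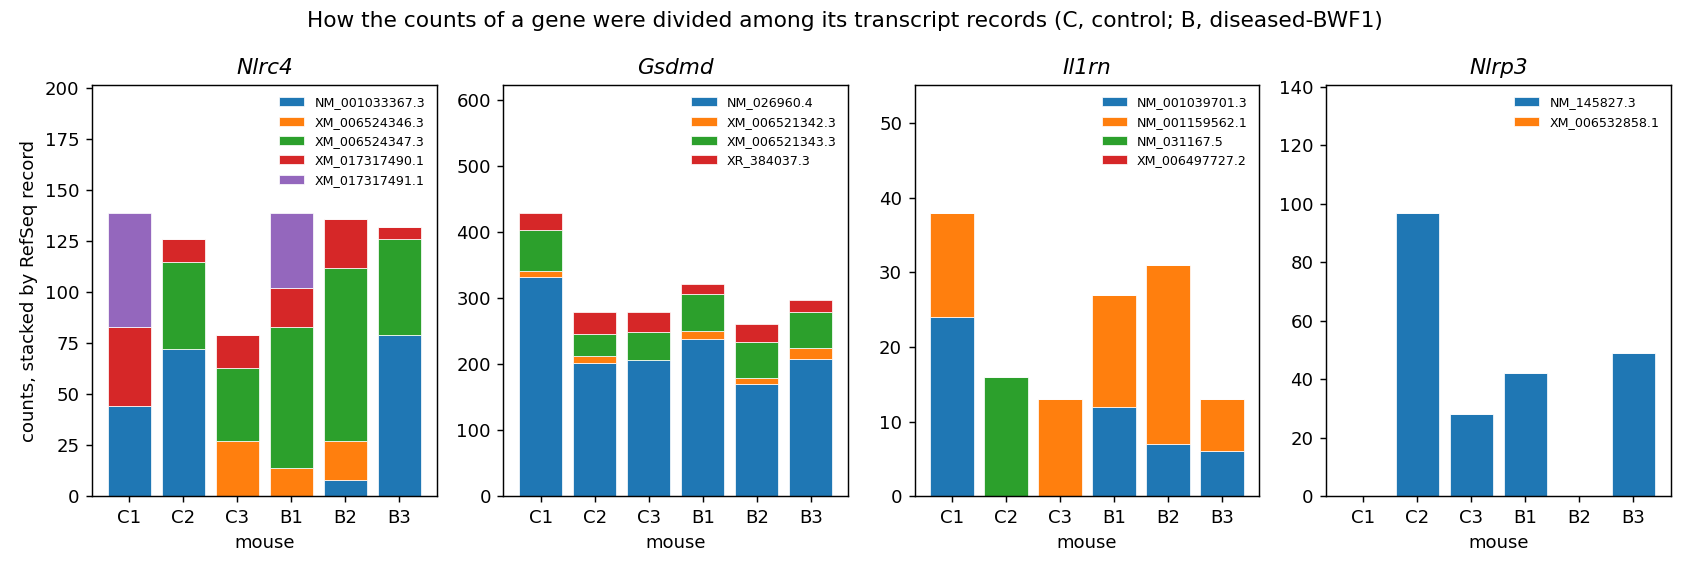
Raw counts of Nlrc4, Gsdmd, Il1rn and Nlrp3 in each mouse (C1 to C3 control, B1 to B3 diseased-BWF1), stacked by RefSeq transcript record. The records of Gsdmd kept similar shares in all mice, while those of Nlrc4 and Il1rn alternated between mice, and Nlrp3 had counts on 1 record in 4 mice and none in C1 and B2.

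Casp1 and Casp4 are neighbours on chromosome 9, with 1567 bases between them. Both had their highest value in control mouse 1, as did Pycard and Gsdmd on other chromosomes. Il1rn was level between control mouse 1 and diseased-BWF1 mouse 2, at 31.4 normalized counts in each. Casp1, from 5298517 to 5307281, had 387, 239.7 and 359 normalized counts in control mice 1 to 3 and 280.4, 212 and 229 in diseased-BWF1 mice 1 to 3. The groups overlapped through control mouse 2, which lay below diseased-BWF1 mouse 1. The mean was 329 ± 78.4 (SD, n = 3) in control and 240.4 ± 35.8 in diseased-BWF1 mice. From the fit, Casp1 had a log2 fold change of -0.45 (SE 0.21, 95% confidence interval from -0.94 to 0.03, edgeR adjusted p = 0.414), and values from -0.63 to -0.32 were obtained on leaving out single mice.

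Casp4, from 5308849 to 5336791, encodes caspase-11, the caspase that binds cytosolic lipopolysaccharide. Its normalized counts were 172, 64.8 and 139 in control and 107, 80.0 and 86.7 in diseased-BWF1 mice. The control group held both the highest and the lowest mouse. The deposited counts covered 2 of the 8 annotated records of Casp4. Fitted over all mice, the log2 fold change was -0.46 (SE 0.34, 95% confidence interval from -1.26 to 0.33), and was -0.16 without control mouse 1 and -0.77 without control mouse 2. Control mouse 1 was also the highest of the 6 mice for Gbp2 (566 normalized counts), Gbp5 (179), Trim30a (520.4) and Il18bp (159.7), genes known to respond to interferons, which were singled out after their values were seen. Aim2, also known to respond to interferons, was not highest there, with 170 normalized counts in control mouse 1 against 223 in control mouse 2. The part of any of these genes in the Casp1 and Casp4 differences was not tested.

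Gsdmd, on chromosome 15 from 75862144 to 75867408, encodes gasdermin D and was among the steadiest genes of the list. It had 356, 287 and 320.4 normalized counts in control and 303, 264 and 301 in diseased-BWF1 mice. The groups overlapped, and means were 321 ± 34.4 and 289 ± 21.7 (SD, n = 3). This was a log2 fold change of -0.15 (SE 0.13), with a 95% confidence interval of the fold from 0.728 to 1.11. Its curated record held 65.1% to 77.2% of the counts in every mouse.

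Il1a, on chromosome 2 from 129299609 to 129310186, had the smallest p of the list. IL-1α is a cytokine that binds the IL-1 receptor and, unlike IL-1β, is active without caspase-1 cleavage. It had 74, 110 and 57 counts in control mice 1 to 3 and 34, 33 and 47 in diseased-BWF1 mice 1 to 3, or 61.2, 113 and 65.5 against 32.1, 33.4 and 47.4 normalized counts. The groups did not overlap. Control mouse 2 stood highest, and the lowest control mouse was above the highest diseased-BWF1 mouse by less than the SD of the control group. Means were 79.9 ± 28.8 and 37.6 ± 8.48 (SD, n = 3), a log2 fold change of -1.09 (SE 0.30, 95% confidence interval from -1.79 to -0.39) and a fold of 0.471 (95% confidence interval from 0.290 to 0.765). The unadjusted p was 0.0077, place 475 of 10505 genes, and the adjusted p = 0.170 missed the threshold (edgeR). DESeq2 gave an adjusted p of 0.109. The exact permutation test gave p = 0.1, its smallest possible value. The log2 fold change remained negative in each of 14 alternatives, with adjusted p from 0.105 to 0.411, and single mice left out moved it between -0.75 and -1.28. The curated record held 61.8% to 97.0% of the counts of a mouse.

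Il1b, on chromosome 2 from 129364569 to 129371164, was near the detection limit. It had 2, 10 and 2 counts in control mice and 2, 7 and 0 counts in diseased-BWF1 mice. The groups overlapped, with the highest value in control mouse 2 and the lowest in diseased-BWF1 mouse 3. Fitted without the low-count filter, its log2 fold change was -0.65 with a 95% confidence interval from -2.79 to 1.49. No difference was detectable at this depth.

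Il18, on chromosome 9 from 50554700 to 50581841, encodes the other cytokine that caspase-1 activates. It had 37.2, 36.0 and 41.3 normalized counts in control and 21.7, 32.4 and 28.2 in diseased-BWF1 mice. The lowest control mouse exceeded the highest diseased-BWF1 mouse, with means of 38.2 ± 2.79 and 27.5 ± 5.39 (SD, n = 3). On the log2 scale the fold change was -0.48 (SE 0.24, 95% confidence interval from -1.03 to 0.07, edgeR adjusted p = 0.458), and the exact permutation p was 0.1. The difference rests on 23 to 45 counts per mouse and did not pass the test. The deposited counts covered 3 of the 8 annotated records of Il18.

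Il1rn, on chromosome 2 from 24336860 to 24351491, encodes the antagonist that occupies the IL-1 receptor without signalling. It had 31.4, 16.5 and 14.9 normalized counts in control and 25.5, 31.4 and 13.1 in diseased-BWF1 mice. Both groups covered nearly the same range. The fitted log2 fold change was 0.14 (SE 0.44, 95% confidence interval from -0.89 to 1.16), and it turned negative without control mouse 2 (-0.01), without control mouse 3 (-0.05) or without diseased-BWF1 mouse 2 (-0.13). All 16 counts of control mouse 2 lay on a curated record that had 0 counts in every other mouse. Isoforms of the antagonist could therefore not be compared between groups.

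The share of Il1rn in the summed counts of Il1a, Il1b and Il1rn, a measure chosen after the values were seen and not tested, was 33.3% (exact Clopper-Pearson 95% interval from 24.8% to 42.8%), 11.8% (6.88% to 18.4%) and 18.1% (9.98% to 28.9%) in control mice 1 to 3. In diseased-BWF1 mice 1 to 3 it was 42.9% (30.5% to 56.0%), 43.7% (31.9% to 56.0%) and 21.7% (12.1% to 34.2%). The groups overlapped through control mouse 1 and diseased-BWF1 mouse 3. The share is not corrected for transcript length (1974 bases for Il1a, 1356 for Il1b and 1377 for Il1rn). It therefore compares mice and does not give the relative levels of the genes. These intervals and the limit of 3 counts treat counts as independent and leave out variation between mice. PCR copies are not independent molecules, so both may be too narrow even for counting error.

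**Figure D4:**
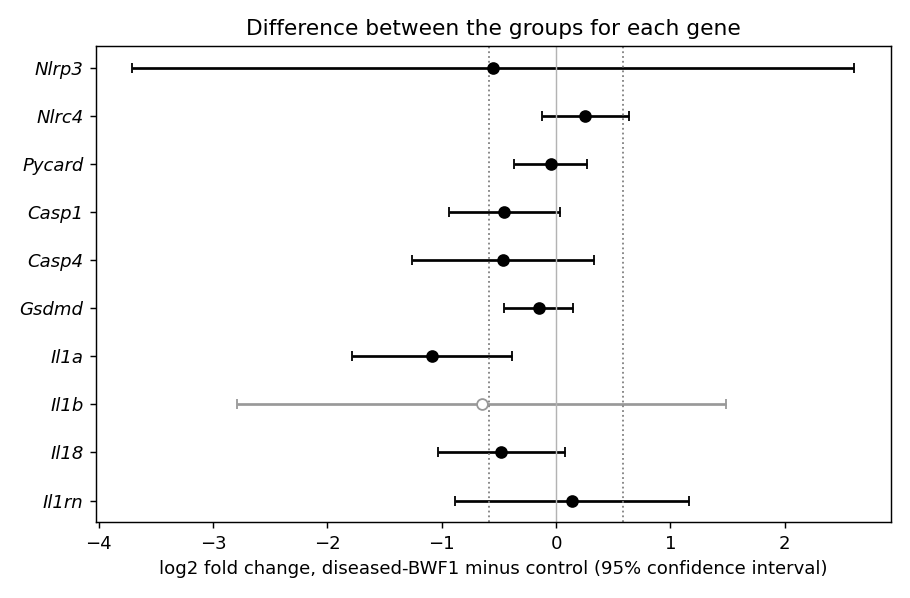
Log2 fold change (diseased-BWF1 minus control) of each gene with its 95% confidence interval from edgeR, the open symbol for Il1b coming from the fit without the low-count filter, and dotted lines at a fold change of 1.5 in either direction. The interval of Il1a, from -1.79 to -0.39, excludes 0, those of Pycard and Gsdmd lie within the dotted lines, and that of Nlrp3 spans from -3.71 to 2.61.

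The other genes of the pathway were described from lists. Of 11 further sensors, 8 were tested and edgeR and DESeq2 called 0, with 0 at an unadjusted p under 0.05 and a median log2 fold change of -0.19. The Naip genes, whose proteins bind bacterial ligands and engage NLRC4, had 330 to 1347 counts per mouse and gene. Naip6 had a log2 fold change of 0.52 (SE 0.27), Naip5 of 0.16 (0.12) and Naip1 of -0.31 (0.27). Naip genes are paralogs of similar sequence, and their values are uncertain because it is not known how reads matching several of them were assigned. Nlrp6 had 0 counts in every mouse.

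Of 15 regulators and effectors, 13 were tested and edgeR called 0, with 3 at an unadjusted p under 0.05 and a median log2 fold change of 0.02. Pstpip1, whose protein binds the sensor pyrin, was the gene of this list that DESeq2 called. It had 4, 6 and 2 counts in control and 15, 28 and 34 in diseased-BWF1 mice. All diseased-BWF1 mice lay above all control mice, with a log2 fold change of 2.66 (SE 0.52), an adjusted p of 0.0686 in edgeR and 0.00963 in DESeq2. Without the low-count filter edgeR gave an adjusted p of 0.0254. Panx1, which encodes a channel that releases ATP, had 24.0, 14.4 and 20.7 normalized counts in control and 38.7, 33.4 and 31.3 in diseased-BWF1 mice, with a log2 fold change of 0.80 (SE 0.28). Ripk3, a kinase of necroptosis, had 301, 198 and 134 in control and 128, 124 and 120.0 in diseased-BWF1 mice, with a log2 fold change of -0.78 (SE 0.27). Neither Panx1 nor Ripk3 passed the adjusted test (edgeR adjusted p = 0.270 and 0.280). The groups did not overlap for either gene, as for 3 of the 13 tested genes of this list and 20.8% of all tested genes.

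Of 6 other ligands of the family, Il33, Il1f6, Il1f8, Il1f5 and Il1f10 had 0 counts in every mouse, and Il1f9, the gene of IL-36γ, had 3 to 8. Of 9 receptors and decoys, 3 passed the filter, and edgeR and DESeq2 called 0, with 0 at an unadjusted p under 0.05. Il1rap, the shared co-receptor, had a log2 fold change of 0.35 (SE 0.23), Il18bp, the soluble IL-18 inhibitor, of -0.44 (0.40), and Il1rl1, the IL-33 receptor, of -0.01 (0.39). Il18bp was 0.13 without control mouse 1, and Il1rl1 was 0.27 without control mouse 2 and 0.28 without diseased-BWF1 mouse 3. Il1r1, the signalling receptor for IL-1, had 0 counts in all mice, and the decoy receptor Il1r2 had at most 1.

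All 12 genes of signalling downstream of the IL-1 receptor were tested, edgeR and DESeq2 called 0, and 1 had an unadjusted p under 0.05, with a median log2 fold change of -0.03. That gene was Irak2, a receptor-associated kinase, with 90.5 ± 10.8 normalized counts in control and 126 ± 20.8 in diseased-BWF1 mice (SD, n = 3), or 0.47 as a log2 fold change (SE 0.18). Irak3, an inhibitory relative, had a log2 fold change of 0.55 (0.25), and Tab1, a partner of the kinase TAK1, of -0.38 (0.20).

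Of 12 targets or subunits of NF-κB that respond to priming signals, 7 were tested and edgeR and DESeq2 called 0, with 1 at an unadjusted p under 0.05. The fitted difference was positive for 6 and negative for 1, with a median log2 fold change of 0.57. Nfkbiz, a nuclear cofactor of NF-κB, had 189.5, 180.0 and 177 normalized counts in control and 323, 301 and 191 in diseased-BWF1 mice. Diseased-BWF1 mouse 3 stood just above the control mice, and the other two stood well above them. Log2 fold changes were 0.57 for Nfkbiz (SE 0.21), 0.79 for Tnfaip3, the gene of the inhibitor A20 (0.36), and 0.31 for Nfkb1 (0.14).

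Immediate early genes, which also respond to tissue handling and cell sorting, had their highest summed level in diseased-BWF1 mice 1 and 2, which were also the highest for Nfkbiz. Of 10 genes, 9 were tested in edgeR, and Fosb did not pass its filter. Of these 9, edgeR called 0, with 5 at an unadjusted p under 0.05 (13.2% of all tested genes) and a median log2 fold change of 1.10. DESeq2 called 6 of the 10 (Fos, Fosb, Junb, Ier2, Nr4a1 and Zfp36), against 3.07% of the genes to which it gave an adjusted p. Fos, Fosb, Junb and Ier2 are among genes that the study selected on these libraries, so their direction is not independent evidence. Fos had 121, 177 and 159.6 normalized counts in control and 1107, 619.8 and 221 in diseased-BWF1 mice. In the fit, Fos had a log2 fold change of 2.09 (SE 0.53), Junb of 0.84 (0.15) and Ier2 of 0.73 (0.14). The summed level of the list was 751 to 915 CPM in control mice and 2466, 2054 and 905 CPM in diseased-BWF1 mice 1 to 3. Its part in the differences of the inflammasome and priming genes was not tested.

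**Figure D5:**
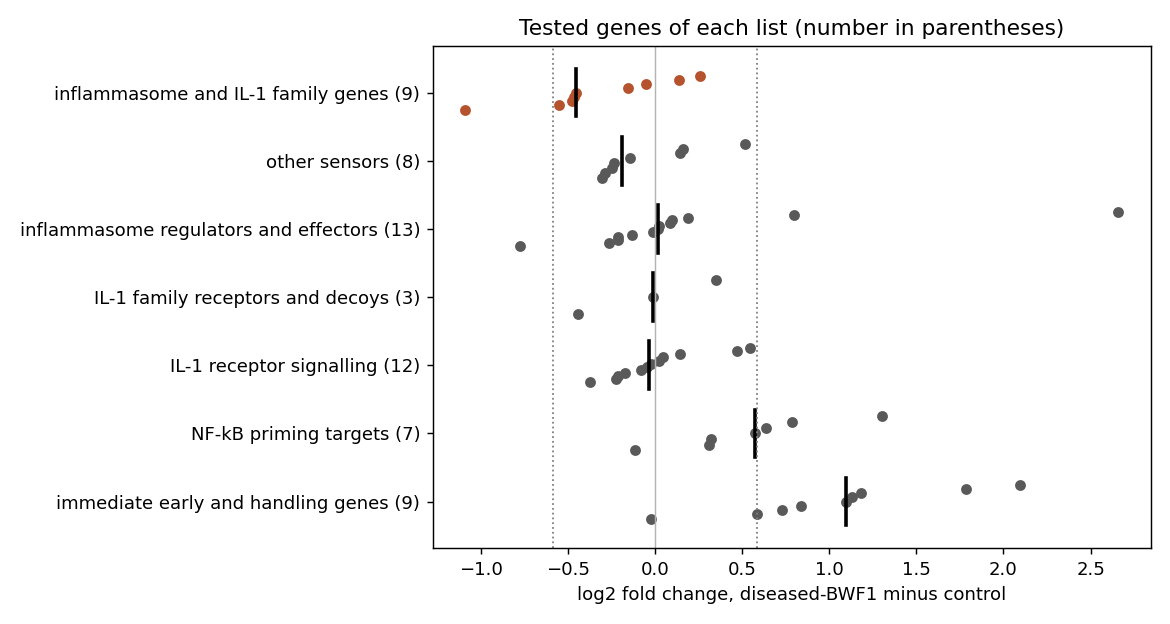
Log2 fold change (diseased-BWF1 minus control) of each tested gene of the inflammasome and IL-1 family list and of 6 further lists, with the number of tested genes in parentheses, a bar at each median and dotted lines at a fold change of 1.5. Medians run from -0.45 for the inflammasome and IL-1 family genes to 1.10 for the immediate early genes.

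The libraries held 3629901 to 5003360 counts, of which 89.1% to 93.0% were on genes, and 3 counts correspond to 0.652 to 0.888 CPM. All 6 macrophage markers were present in every mouse, with a summed level of 25389 to 28191 CPM in control and 28406 to 34853 CPM in diseased-BWF1 mice, most of it from Prg4. None of the 6 was called by edgeR or DESeq2, and 1 (Timd4) had an unadjusted p under 0.05. Prg4 was higher in each diseased-BWF1 mouse (log2 fold change 0.29, SE 0.19), Itgam, Csf1r and Gata6 overlapped, and Timd4 and Adgre1, like Il1a and Il18, were higher in each control mouse. Timd4, a marker of long-resident PMs, had 4799, 4716 and 4558 normalized counts in control and 3631, 3806 and 2315 in diseased-BWF1 mice (log2 fold change -0.53, SE 0.21). Adgre1, the gene of F4/80, had 8093, 8233 and 8562 against 7304, 7746 and 7060 normalized counts (log2 fold change -0.17, SE 0.13). The part of these marker differences in the values of Il1a, Il18 and the other genes of the list was not tested.

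Monocyte markers summed to 43835 to 67457 CPM in control and 65195 to 69636 CPM in diseased-BWF1 mice, almost wholly through Fn1, which PMs also express. F13a1 had 1582 to 3039 counts per mouse and a log2 fold change of -0.44 (SE 0.29), against 0.31 (0.21) for Fn1. Ccr2 had 13, 8 and 2 counts in control and 24, 6 and 31 in diseased-BWF1 mice (log2 fold change 1.43, SE 0.69), Plac8 had 28, 2 and 2 against 7, 23 and 6 counts, and Ly6c2 had at most 1 count. The groups overlapped for each of these genes, and their part in the results was not tested. Neutrophils, a known source of Il1b, were at 5.41 to 8.17 CPM in control and 4.51 to 8.46 CPM in diseased-BWF1 mice over 8 markers, with Ly6g and Retnlg at 0. The B cell markers Cd79a, Cd79b, Ms4a1 and Pax5 summed to 25, 9 and 17 counts in control and 12, 9 and 2 in diseased-BWF1 mice, or 2.43 to 5.41 against 0.525 to 2.98 CPM. These B cell sums overlapped between the groups, with control mice 1 and 3 highest. Cd79b and Ms4a1, with at most 6 counts, were each higher in every control mouse by normalized counts, while Cd79a and Pax5 overlapped. The part of these B cell markers in the differences of Il1a and Il18 was not tested. Dendritic cell markers summed to 7.87 to 13.4 CPM, and T and NK cell, eosinophil and mast cell markers to at most 2.74 CPM in any mouse. In these bulk samples, fewer cells of a type and less RNA per cell cannot be told apart.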

How the data were processed

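RNA-seq was made from PMs of 6 mice, 3 per group, with a stranded mRNA kit. The authors deposited whole-number counts for 107193 RefSeq transcript records per mouse, without normalization. The submitters' processing notes name Salmon 0.8.0, DESeq2 and GRCm38.p6 with no roles, so the counts may be rounded estimates, and the assignment of reads shared by records is not given in the sources used here. Records were matched to a RefSeq gene table (GRCm38.p6), 45754 with the same version and 40712 with another version, and summed per gene. The 20727 unmatched records were left out. Counts on genes ranged from 3376669 to 4604336 per mouse.

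Groups were taken from the sample labels and compared with edgeR 4.0.16 in R 4.3.3 (filterByExpr, TMM, glmQLFit, glmQLFTest) over 10505 genes with Benjamini-Hochberg adjustment. Thresholds were an adjusted p of 0.05 and a fold of 1.5. Normalized counts used DESeq2 size factors (0.871 to 1.21). CPM used TMM-scaled libraries, and log2 CPM a prior count of 2. Levels per kilobase used GENCODE lengths of the curated records, weighted by their counts. The code was tested on simulated data. Alternatives were DESeq2 1.42.0, limma-voom (limma 3.58.1), RLE size factors, no filter, a filter of 10 counts per library, a block for replicate number, a covariate for age, curated mRNA records alone, single mice left out and, for levels, the longest transcript.

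Named were all 10 genes, the 3 tested genes with the smallest p of each other list and any called gene, the 5 profiles closest to the gene with the largest SD of log2 CPM, and marker genes, of which 1 is not reported here. Further genes named for their counts or DESeq2 calls were chosen after their values were seen. The genes and lists were chosen with earlier results of these data known. Each library is a separate mouse. No library was a duplicate of another, the smallest variance between a pair being 9.56 times that of sampling.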

Additional observations from a re-analysis of the deposited data

How the results depend on the processing

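No gene of the inflammasome and IL-1 family list was called under any of the alternatives, and the number whose groups did not overlap was 3 with CPM and 2 with curated records alone, against 3. Over all genes, 42 were called higher and 86 lower. DESeq2 gave 128 and 242, no low-count filter 89 and 170, at least 10 counts in every library 27 and 57, and curated records alone 9 and 7, and age as a covariate gave 53 lower. Leaving out each mouse in turn gave 11 to 22 higher and 10 to 29 lower. The regulators list went from 0 called to 1 with DESeq2 and 1 without the filter, and the immediate early list from 0 to 6 and 4, and to 0 to 1 with a mouse left out, the 1 being Fos without diseased-BWF1 mouse 3. With the longest transcript, 2 genes changed place in the order of levels, and 2 did with the RefSeq span as the length of Pycard, an alternative chosen after seeing the data.

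The replicate number as a block gave 18 genes higher and 20 lower and changed no call of the 10 genes. Same-numbered mice are different animals, and the pairing was not used. Their deviations correlated with r = 0.117, 0.00556 and 0.157 across genes for numbers 1 to 3. Numbers 1 and 3 gave the highest values of all pairs. The lowest were control mouse 1 with diseased-BWF1 mouse 3 (-0.144) and control mouse 3 with diseased-BWF1 mouse 1 (-0.136). Control mouse 2 correlated better with diseased-BWF1 mouse 1 than with its own number. Nlrp3 reversed to 0.01 (0.00614) with the block, and to 0.29 with limma-voom. With a mouse left out, the log2 fold change ranged from -1.16 to 0.97 for Nlrp3, which was 0.0374 without diseased-BWF1 mouse 2. It ranged from -0.15 to 0.02 (0.0164) for Pycard, from -0.13 to 0.56 for Il1rn (-0.00833 without control mouse 2 and -0.0484 without control mouse 3), from -0.69 to 0.13 for Il18bp, and from -0.39 to 0.28 for Il1rl1 (0.27 without control mouse 2). Nlrc4 was -0.35 with curated records alone. Causes were not tested. Nlrp3 had no value with at least 10 counts in every library, and Il1b none where the filter removed it. A design of 3 mice against 3 cannot give an exact permutation p below 0.1.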
